A study of Mus musculus with 6 samples.

Results

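Cytosolic ribosomes read messenger RNA in every cell. Each ribosome joins a large subunit, built on ribosomal RNA with the proteins whose gene names begin with Rpl, to a small subunit with the proteins whose names begin with Rps. Most of these proteins are needed together in equal numbers in all tissues. A few have a second gene, or paralog, that is used in particular tissues. The best known of these in muscle is Rpl3l, a paralog of Rpl3 that is made mainly in skeletal muscle and heart, where it takes the place of Rpl3 near the peptide-forming centre of the large subunit.

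The 85 cytosolic ribosomal protein genes described here were chosen by their symbols among 24346 genes, leaving out pseudogenes and the Rps6k kinases. They comprise 52 genes of the large subunit, Rpl3l among them, and 33 of the small subunit. RNA came from condylar cartilage, the growth cartilage of the lower jaw joint, dissected from mice under a microscope. The mutant group (3 libraries) carried a deletion of Indian hedgehog (Ihh) in craniofacial neural crest cells, and the control group (3 libraries) is labelled fl/fl, the usual notation for a floxed gene. The driver of the Cre, the age of the mice and whether each library is a separate animal were not stated in the sources used here. P-values therefore measure the spread between these libraries, which may be partly technical.

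Values are FPKM, in which fragments are divided by the length of the transcript and by the fragments of the whole library. The absolute depth was not known. Steps between low FPKM values put the depth of mutants 1, 2 and 3 at 0.998, 1.201 and 1.054 times that of control 1, and the depth of controls 2 and 3 at 0.993 and 1.331 times. Ihh itself measured 2.18, 2.33 and 2.66 FPKM in mutants 1, 2 and 3, and 3.73, 2.51 and 3.74 FPKM in controls 1, 2 and 3 (limma adjusted p = 0.724). The groups overlapped, since mutant 3 lay above control 2, and a value for the whole gene can hold reads from exons that a deletion leaves in place. The cartilage proteoglycan gene Acan was present in every library, at 9.51 to 14.6 FPKM in mutants and 27.2 to 33.1 FPKM in controls. For scale, 1102 genes of odour receptors, which cartilage is not known to use, had a 90th percentile of 6.87 to 8.58 FPKM in mutants and 6.49 to 8.45 FPKM in controls, so that values of a few FPKM lay in the range of silent genes. The female-specific transcript Xist measured 0.577 to 0.984 FPKM in mutants, 29.5 and 29.2 FPKM in controls 1 and 2 and 0.608 FPKM in control 3, so the sexes were not balanced between the groups.

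Mutant cartilage was compared with control cartilage to ask which transcripts differed after the deletion. Rpl3l rose 9.86-fold (ratio of means) in mutants and was the 1 member of 84 tested that passed the test. The other 83 members had log2 fold changes between -0.86 and 0.71, and none of them passed. Rpl3l measured 63.6, 100.2 and 36.3 FPKM in mutants 1, 2 and 3, and 5.38, 4.24 and 10.7 FPKM in controls 1, 2 and 3. The groups were far apart, with the lowest mutant above the highest control. Its mean was 66.7 ± 32.1 FPKM in mutants and 6.77 ± 3.44 FPKM in controls (SD, n = 3 each). On the scale of log2(FPKM + 1), used for every log2 fold change here, Rpl3l rose by 3.10 ± 0.40 (SE; limma adjusted p = 0.0161; 95% interval from 2.18 to 4.01). Rpl3l in controls 1 and 2 lay under the level that 90% of odour receptor genes stay under, so the size of the fold rests on control values near the background. Over all 18715 genes tested, 1.24% were called, with 0.775% higher in mutants.

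Rpl3, the gene used in nearly all cells, measured 352, 425 and 390 FPKM in mutants 1, 2 and 3, and 420, 421 and 475 FPKM in controls 1, 2 and 3. Its groups overlapped through mutant 2. The log2 fold change of Rpl3 was -0.17 ± 0.17 (SE; limma adjusted p = 0.744), with a 95% interval from -0.55 to 0.20. Rpl3 was thus the larger of the pair in every library, while Rpl3l made up 15.3%, 19.1% and 8.51% of the FPKM of the pair in mutants 1, 2 and 3, against 1.26%, 0.997% and 2.202% in controls 1, 2 and 3. The log2 ratio of Rpl3l to Rpl3 was higher by 3.27 in mutants. A two-sided exact permutation test gave p = 0.1, the smallest that 3 against 3 libraries allow.

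**Figure D1:**
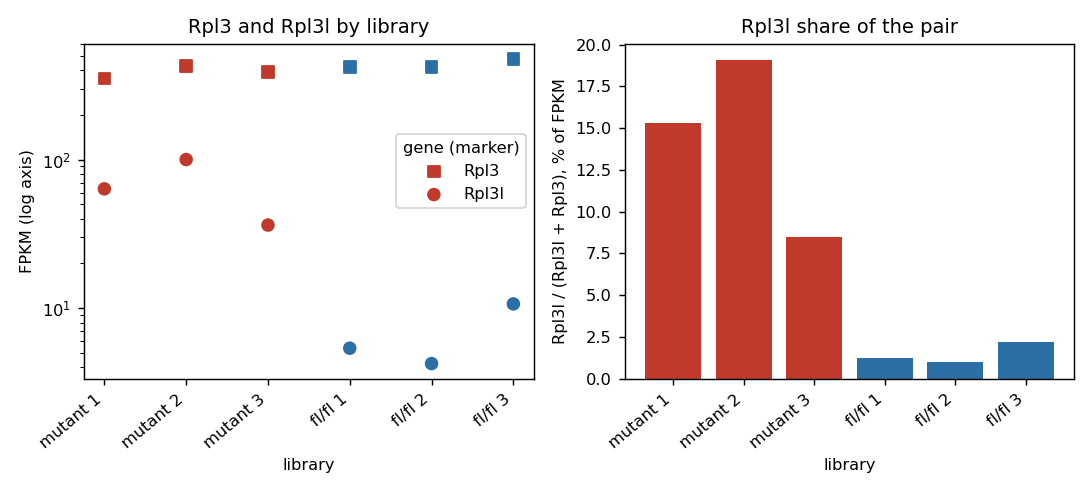
Left, FPKM of Rpl3 (squares) and Rpl3l (circles) in each library on a log axis, mutants in red and fl/fl controls in blue; right, Rpl3l as a percentage of the summed FPKM of both genes. Rpl3 lies between 352 and 475 FPKM in all libraries, while Rpl3l is at 36.3 FPKM or more in mutants and at 10.7 FPKM or less in controls.

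The call of Rpl3l was lost without control 1 (limma adjusted p = 0.0789), control 2 (adjusted p = 0.0594) or mutant 1 (adjusted p = 0.0735), with log2 fold changes of 2.86 to 3.07 in those fits. Over the 17 other settings tried it passed in 10, with adjusted p from 0.00333 to 0.727, and it was higher in mutants in all 17.

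Skeletal muscle genes moved with the same groups. The mean of 24 muscle genes, none of them listed at 0 in every library, was 7.21 to 8.004 log2 units in mutants and 5.59 to 6.63 log2 units in controls. Of these 24 genes 9 rose and 0 fell (limma, adjusted over all genes), with a median log2 fold change of 1.59. At an unadjusted p below 0.05, 20 were higher (83.3%, against 7.94% of all genes) and 1 lower (4.17%, against 6.11%). In bulk tissue, more cells of a type and more RNA per cell cannot be told apart. With the mean of the muscle genes as a covariate, the log2 fold change of Rpl3l was 1.27 and did not pass (limma adjusted p = 0.727). With Xist as a covariate it was 2.44 (limma adjusted p = 0.187). With controls 1 and 2 left out, which leaves only control 3, it was 2.42. The muscle mean separates the groups without overlap, so little of the group difference is left to test. Over all genes, 3 were called with the muscle covariate and 2 with Xist. A lost call in these fits therefore says little about Rpl3l itself, and the part of muscle or sex in its rise was not tested.

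The muscle genes had log2 fold changes from -1.11 for the slow troponin Tnni1 to 2.75 for Myh1, a fast myosin heavy chain, and 0 of the 24 exceeded the 3.10 of Rpl3l. Set against the mean of the muscle genes within each library, Rpl3l stood at -1.80, -1.34 and -1.99 log2 units in mutants 1, 2 and 3, and at -3.69, -3.20 and -3.08 log2 units in controls 1, 2 and 3. These groups did not overlap either. The difference of 1.61 had an exact two-sided permutation p of 0.1, the smallest possible, and this measure was chosen after the data were seen.

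**Figure D2:**
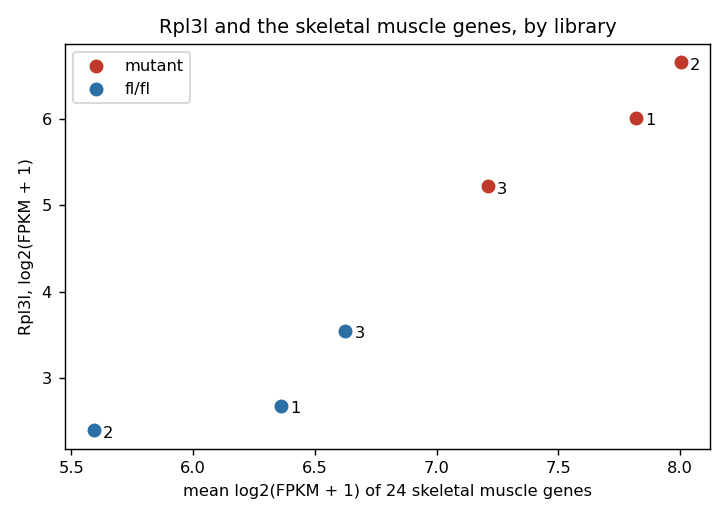
Rpl3l, as log2(FPKM + 1), against the mean log2(FPKM + 1) of 24 skeletal muscle genes in each library, mutants in red and fl/fl controls in blue, with replicate numbers. Mutants lie at 7.21 to 8.004 and controls at 5.59 to 6.63 on the muscle axis, and the order of the libraries on both axes is the same.

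By correlation over the 6 libraries, the genes most like Rpl3l were Myoz1, a sarcomere gene that is also one of the 24, Pdk2, a kinase that restrains pyruvate dehydrogenase, Acadvl, an enzyme of fatty acid oxidation, Msrb1, a methionine sulfoxide reductase, Pla2g16, a phospholipase, the mitochondrial kinase Pink1, the myosin chaperone Unc45b and the membrane gene Bves. Their Pearson r was 0.993 to 0.999. All points share the same 6 libraries, and the difference between the groups dominates these values. Pdk2 measured 94.95, 123 and 56.2 FPKM in mutants 1, 2 and 3, and 15.9, 15.3 and 26.2 FPKM in controls 1, 2 and 3. As for Rpl3l, mutant 2 was the highest and mutant 3 the lowest mutant, and control 3 was the highest control.

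Rpl3l lies on chromosome 17 from 24727820 to 24736143 on the plus strand (mm10, GENCODE release M21), in 12 exon blocks with no annotated gene on the opposite strand. It is one of a dense run of genes, with 13 measured neighbours within 50 kb on either side. Another member, Rps2, which encodes a protein of the small subunit, ends 5890 bases before Rpl3l, on the same strand. Rps2 measured 923, 972 and 852 FPKM in mutants 1, 2 and 3, and 852, 840 and 1002 FPKM in controls 1, 2 and 3. The values of Rps2 overlapped fully, at 915 ± 60.3 FPKM in mutants and 898 ± 90.3 FPKM in controls.

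The genes on either side of Rpl3l were singled out after their values were seen. Ndufb10, a subunit of respiratory complex I that lies 3341 bases upstream on the minus strand, measured 496, 478 and 266 FPKM in mutants 1, 2 and 3, and 199, 138 and 252 FPKM in controls 1, 2 and 3 (limma adjusted p = 0.14). Msrb1, which begins 498 bases after the end of Rpl3l on the same strand, measured 11.3, 12.8 and 9.73 FPKM in mutants 1, 2 and 3, and 6.16, 5.17 and 6.94 FPKM in controls 1, 2 and 3 (limma adjusted p = 0.145). Of the 13 measured neighbours, Ndufb10 and Msrb1 were the ones whose mutant values all lay above the controls, and neither passed the test. Among all genes tested, 9.77% had mutants above controls without overlap.

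The bases before the 2 annotated starts of Rpl3l are shown because they carry letters known from muscle genes, taken from RefSeq on build GRCm38.p6, plus strand. The first stretch is chr17:24727576-24727825 and ends at the base before the first start. Capitals mark CAGCTG, a form of the E-box that myogenic factors bind, searched on both strands. The second is chr17:24732535-24732684, before a start within the gene, with capitals marking a match to the MEF2 motif.
Rpl3l, first start: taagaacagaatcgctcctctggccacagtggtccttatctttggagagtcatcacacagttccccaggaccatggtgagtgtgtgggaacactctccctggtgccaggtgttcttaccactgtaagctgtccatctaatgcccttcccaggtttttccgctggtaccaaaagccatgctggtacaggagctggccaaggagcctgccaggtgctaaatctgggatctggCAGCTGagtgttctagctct
Rpl3l, second start: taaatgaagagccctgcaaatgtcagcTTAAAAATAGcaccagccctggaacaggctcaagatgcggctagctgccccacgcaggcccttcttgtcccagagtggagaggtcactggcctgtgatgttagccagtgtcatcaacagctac
In windows from 250 bases before to 50 bases after a start, CAGCTG was found for 4 of the 64 members with such a window and for 18.3% of 27025 genes. The MEF2 motif was found for Rpl3l alone among these 64, at its second start only, and for 3.7% of all genes. Rpl3 had no such window and was not searched. A match describes the letters and is not a site that was measured.

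The family as a whole was abundant and even. Of the 85 members 29 averaged at least 500 FPKM over the 6 libraries and 45 between 100 and 500 FPKM, while 9 lay between 10 and 100 FPKM and 2, Rpl10l and Rpl39l, below 10 FPKM. The 84 tested members reached 1 FPKM in all 6 libraries. The coefficient of variation among the 3 libraries had a median over genes of 13.2% in mutants and 13.7% in controls. The 95% interval of the log2 fold change lay within 1 log2 unit of 0 for 77 of 84 members (91.7%), against 46.4% of all genes tested.

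Most members were slightly lower in mutants without passing the test. The log2 fold change was negative for 66 of 84 (78.6%), against 49.9% of all genes. Its median was -0.13 over the members and 0.00085 over all genes. At an unadjusted p below 0.05 there were 5 members (5.95%), against 14.1% of all genes. Of these 5 members 4 were lower, a direction that 6.11% of all genes took at that p. Mutant and control values did not overlap in 14 members (16.7%), against 19.2% of all genes. Mutants lay below controls in 13 of these (15.5%, against 9.4% of all genes) and above in 1, Rpl3l (1.19%, against 9.77%). The background depends on the level. Among the 74 members that averaged at least 100 FPKM, mutants lay below controls without overlap in 12 (16.2%) and above in 0. Among all 816 genes at that level it was 179 below (21.9%) and 142 above (17.4%). At that level 81.1% of the members and 55.8% of all genes had negative log2 fold changes, and 4.05% of the members and 37.3% of all genes an unadjusted p below 0.05. After quantile normalization the tilt was larger, with 75 of 84 members negative and a median of -0.25, and 24 members (28.6%) had an unadjusted p below 0.05, against 15.1% of all genes. The median was -0.15 for 50 genes of the large subunit without Rpl3l and -0.10 for 33 genes of the small subunit.

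**Figure D3:**
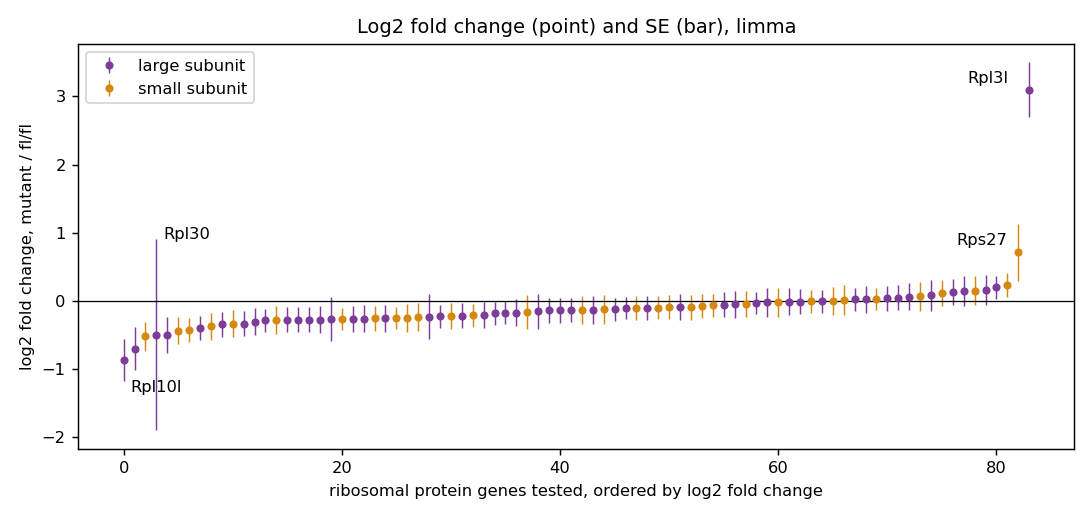
Log2 fold change (mutant over fl/fl, points) with its standard error (bars) of the 84 ribosomal protein genes tested, ordered by size, with large subunit genes in purple and small subunit genes in orange. Rpl3l stands at 3.10, and the other 83 genes lie between -0.86 and 0.71.

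This slight tilt moved with 2 libraries. Control 3 was the highest control for 73 of 84 members, and mutant 3 was the lowest mutant for 60 of 84. Leaving out Rpl3l, the median deviation of a member from its own mean was -0.07, 0.08 and -0.18 log2 units in mutants 1, 2 and 3, and -0.06, 0.01 and 0.27 log2 units in controls 1, 2 and 3. Mutant 2 was therefore above controls 1 and 2. The median log2 fold change was -0.06 without mutant 3 and -0.04 without control 3. Without both it was 0.03, with 38 of 84 members negative, a setting chosen after the data were seen. These libraries were picked because they lean with the tilt, so leaving them out was bound to make it smaller. In other settings the tilt was larger, with 80 of 84 members negative with the Xist covariate and 79 of 84 with the muscle covariate. With the controls that express Xist left out it was also 80 of 84. Without mutant 3 and control 3, Rpl3l stayed called, at a log2 fold change of 3.81 (limma adjusted p = 0.00333). These were also the lowest mutant and the highest control for Rpl3l, so leaving them out could only widen its gap. The controls that remained were those that express Xist, so group and sex cannot be told apart in that fit.

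**Figure D4:**
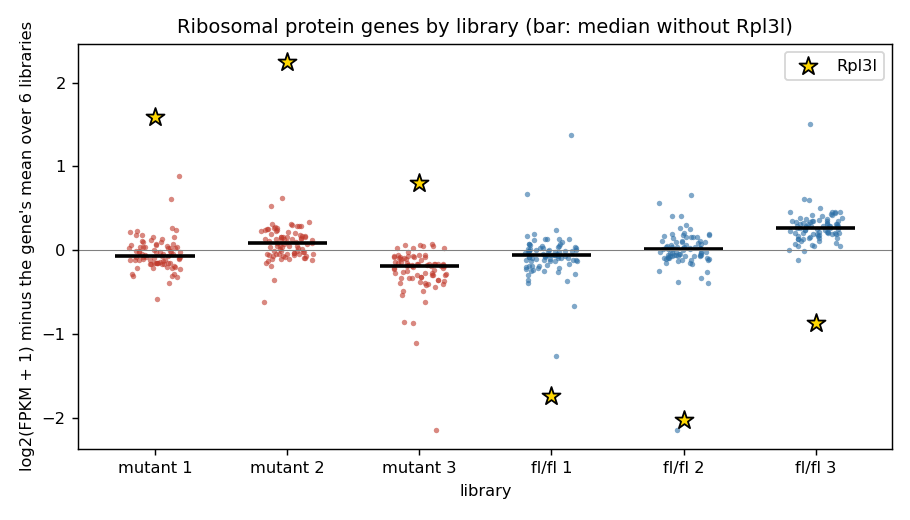
Each point is 1 ribosomal protein gene (84 genes, without Rpl26), plotted as its log2(FPKM + 1) minus its mean over the 6 libraries, with mutants in red and fl/fl controls in blue; black bars are medians without Rpl3l, and stars are Rpl3l. The medians run from -0.18 in mutant 3 to 0.27 in control 3, while Rpl3l is above 0 in all mutants and below 0 in all controls.

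Summed over all 85 members, the family measured 33270, 37374 and 29626 FPKM in mutants 1, 2 and 3, and 33268, 34835 and 41625 FPKM in controls 1, 2 and 3. These sums overlapped between the groups. As a share of all FPKM in the library they did not: 5.11%, 5.06% and 4.66% in mutants 1, 2 and 3, and 5.73%, 5.84% and 6.53% in controls 1, 2 and 3. All FPKM summed to 651350, 738390 and 635750 in mutants 1, 2 and 3, and 581070, 596350 and 637690 in controls 1, 2 and 3. Mutant 1 and control 1 had nearly equal family sums, so their shares differ through these totals. Beside these shares, the 24 muscle genes took 3.28% to 5.14% of the summed FPKM in mutants and 0.874% to 2.02% in controls. With the muscle genes left out of the sum, the family's share was 4.82% to 5.38% in mutants and 5.82% to 6.66% in controls. The summed large subunit genes exceeded the summed small subunit genes by a ratio of 1.26 to 1.32 in mutants and 1.29 to 1.33 in controls.

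The 5 most abundant members were Rpl41, which encodes a very short basic peptide, Rps18, Rps2, Rpl38 and Rps29. Rpl41 measured 1400, 1647 and 1403 FPKM in mutants 1, 2 and 3, and 1785, 1890 and 2206 FPKM in controls 1, 2 and 3. Its groups did not overlap, and it did not pass (limma adjusted p = 0.341). Rps18 averaged 926 ± 186 FPKM in mutants and 938 ± 179 FPKM in controls, and Rps29 852 ± 193 FPKM in mutants and 833 ± 92.7 FPKM in controls (SD, n = 3 each).

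At the low end of the fold changes stood Rpl10l, Rpl22l1, Rps21, Rpl30 and Rpl38. Rps21, of the small subunit, measured 187, 209 and 148 FPKM in mutants 1, 2 and 3, and 220, 237 and 326 FPKM in controls 1, 2 and 3. Its mutants lay below its controls, by less than needed to pass (log2 fold change -0.52 ± 0.22, limma adjusted p = 0.322). Rpl38, whose loss in mice disturbs the patterning of the axial skeleton, measured 881, 918 and 472 FPKM in mutants 1, 2 and 3, and 967, 1141 and 969 FPKM in controls 1, 2 and 3. Mutant 3 was far below the other mutants (log2 fold change -0.49 ± 0.26, limma adjusted p = 0.47).

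Rpl30 measured 61.6, 47.8 and 6.64 FPKM in mutants 1, 2 and 3, and 87.4, 6.68 and 95.9 FPKM in controls 1, 2 and 3. It had 1 low library in each group, and its standard error of 1.40 log2 units was far above the family's median of 0.19. Rpl30, like Rpl26, is a gene that every cell uses, so the low values can be failed estimates and its fold change, with its place in this order, is uncertain. At the high end, Rps9, Rpl37a and Rpl8 had log2 fold changes of 0.23, 0.20 and 0.16 with overlapping groups (limma adjusted p from 0.666 to 0.835).

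Stretches before the starts of Rps21 and Rpl38 are shown because they carry CCGGAAG, in capitals, a form of the site of ETS factors that is common in promoters of ribosomal protein genes. Both are from RefSeq on build GRCm38.p6, plus strand, and end at the base before an annotated start. They are chr2:180257229-180257378 for Rps21 and chr11:114668430-114668579 for Rpl38.
Rps21: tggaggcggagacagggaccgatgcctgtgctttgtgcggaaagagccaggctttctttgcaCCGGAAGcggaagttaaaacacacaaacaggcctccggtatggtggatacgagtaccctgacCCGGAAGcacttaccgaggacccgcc
Rpl38: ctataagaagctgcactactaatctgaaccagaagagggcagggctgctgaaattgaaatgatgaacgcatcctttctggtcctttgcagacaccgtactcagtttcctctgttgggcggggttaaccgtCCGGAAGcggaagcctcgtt
Searched on both strands from 250 bases before to 50 bases after a start, CCGGAAG was found for 26 of 64 members (40.6%) and for 9.93% of 27025 genes. These letters are in neither window of Rpl3l. A run of at least 8 bases that are all C or T, the kind of tract that opens messenger RNAs of ribosomal proteins, was found between 25 bases before and 50 bases after a start for 50 of 64 members (78.1%) and for 30.4% of all genes. Rpl3l is among these 50, with a run of 9 bases at its first start and of 4 at its second.

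Paralogs other than Rpl3l did not pass the test. In 8 pairs of a paralog and its parent gene, the share of the paralog in the FPKM of the pair was compared by the exact permutation test on log2 ratios, which cannot go below 0.1. Rpl3l with Rpl3, Rpl22l1 with Rpl22 and Rps27l with Rps27 reached an exact permutation p of 0.1, which is 0.267 when adjusted over the 8 pairs. For Rps27l the ratio rests on the low values of Rps27, which has a far more abundant near-identical copy, Rps27rt. Against Rps27 and Rps27rt together, Rps27l made up 31.2%, 21.2% and 23.2% in mutants 1, 2 and 3, and 22.3%, 29.1% and 29.6% in controls 1, 2 and 3, and these groups overlapped.

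Rpl22l1, the paralog of the RNA-binding protein gene Rpl22, was itself abundant in this tissue. It measured 132, 110 and 54.0 FPKM in mutants 1, 2 and 3, and 129, 146 and 181 FPKM in controls 1, 2 and 3. The groups overlapped, and mutant 3 was far below the rest (log2 fold change -0.70 ± 0.32, limma adjusted p = 0.37). Rpl22 measured 31.7 to 34.5 FPKM in mutants and 28.6 to 36.3 FPKM in controls. Rpl22l1 thus made up 79.6%, 77.6% and 61.0% of the pair in mutants 1, 2 and 3, and 81.9%, 81.6% and 83.3% in controls 1, 2 and 3.

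Rpl10l, an intronless copy of the X-linked Rpl10 that is known from the testis, measured 9.41, 4.98 and 4.05 FPKM in mutants 1, 2 and 3, and 13.7, 11.2 and 9.62 FPKM in controls 1, 2 and 3. Mutants lay below controls by a narrow margin (log2 fold change -0.86 ± 0.31, limma adjusted p = 0.239). Mutants 2 and 3 lay under the level that 90% of odour receptor genes stay under. The smallest whole numbers of fragments that give these 6 values within 0.1 of a fragment were found. They were at least 11, 7 and 5 fragments in mutants 1, 2 and 3 and 16, 13 and 15 in controls 1, 2 and 3. Allowing for depth, mutants held 0.534 times the fragments of controls (exact 95% limits 0.308 and 0.904, counting error only). These limits pool the fragments of each group and leave out the spread between libraries, so they are no test of the groups. Reads of Rpl10l, which resembles Rpl10 closely, may be shared with it. Rpl10 was far more abundant, at 735 to 770 FPKM in mutants and 829 to 985 FPKM in controls.

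Rpl39l, another paralog known from the testis, measured 5.84, 11.6 and 8.84 FPKM in mutants 1, 2 and 3, and 6.99, 15.3 and 9.63 FPKM in controls 1, 2 and 3. These were at least 5 to 13 fragments per library, and mutants held 0.851 times the fragments of controls (exact 95% limits 0.48 and 1.498, counting error only). No whole numbers up to 600 fragments could be found for Rpl3l, so its counting error was not known.

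Rpl7l1, a factor of large subunit assembly that resembles Rpl7, measured 44.7 to 54.1 FPKM in mutants and 47.1 to 57.5 FPKM in controls. Rpl36al measured 222 to 320 FPKM in mutants and 288 to 372 FPKM in controls, and Rps4l 24.3 to 36.1 FPKM in mutants and 28.5 to 34.4 FPKM in controls. Their groups overlapped, as did those of Rps27l, at 258 to 400 FPKM in mutants and 266 to 460 FPKM in controls. The log2 fold changes of Rpl7l1, Rpl36al, Rpl39l, Rps4l and Rps27l lay between -0.26 and -0.05 (limma adjusted p from 0.665 to 0.94).

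**Figure D5:**
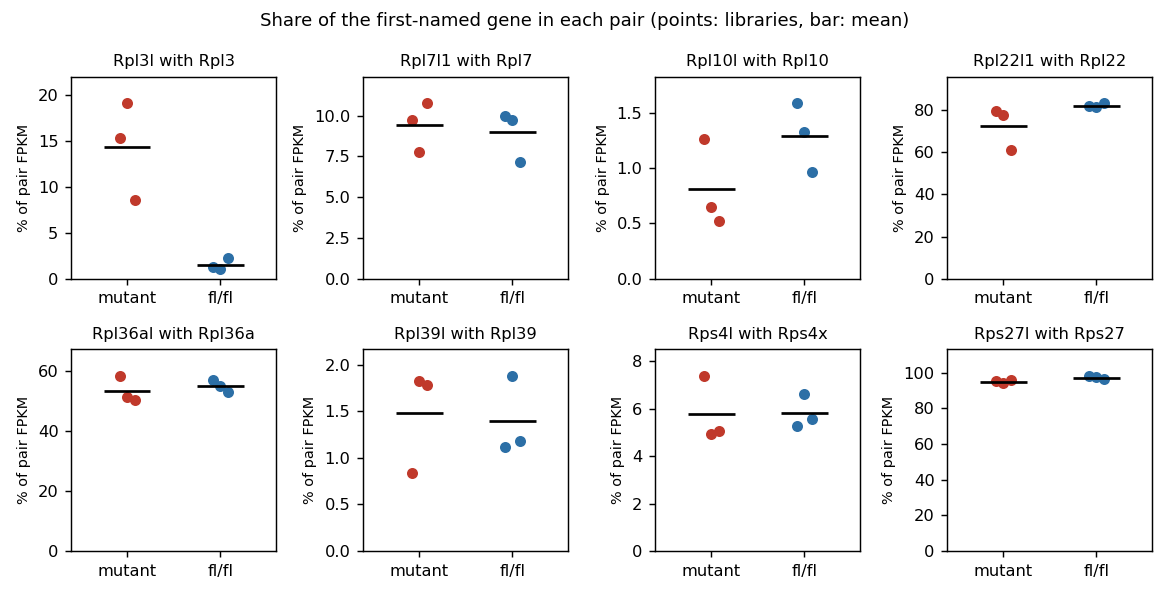
Share of the first-named gene in the summed FPKM of each of 8 pairs, with mutants in red and fl/fl controls in blue, points for libraries and bars for group means; each axis starts at 0. For Rpl3l the mutant mean is 14.3% and the control mean 1.49%, while for Rpl36al they are 53.3% and 54.9%.

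Some members stood far below the rest of the family, and for Rps27 and Rpl34 the share of reads given to near-identical copies matters. Rps27 measured 20.6, 20.8 and 11.7 FPKM in mutants 1, 2 and 3, and 4.89, 10.8 and 18.4 FPKM in controls 1, 2 and 3. Its log2 fold change of 0.71 ± 0.42 did not pass (limma adjusted p = 0.533). Rps27rt, a retrotransposed copy outside the 85 genes, held 840 to 1180 FPKM in mutants and 914 to 1076 FPKM in controls. Rps27 and Rps27rt together came to 979 ± 193 FPKM in mutants and 983 ± 97.1 FPKM in controls. In the same way Rpl34 measured 47.2 to 62.9 FPKM in mutants and 38.0 to 90.4 FPKM in controls, while its copy Rpl34-ps1 held 494 to 778 FPKM in mutants and 610 to 666 FPKM in controls.

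Rps15a, at 15.8 to 19.7 FPKM in mutants and 15.8 to 17.3 FPKM in controls, was also low. Its pseudogenes Rps15a-ps4 and Rps15a-ps6 were low too, averaging 17.3 and 21.6 FPKM over the 6 libraries. Rpl26, a gene that every cell uses, was listed at 0.005, 29.1 and 35.0 FPKM in mutants 1, 2 and 3, and at 0.006, 0.005 and 0.007 FPKM in controls 1, 2 and 3. It reached 1 FPKM in only 2 libraries and was the member left untested. Values for such genes can be failed estimates, so no fold change is given for Rpl26.

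Genes that build or serve the ribosome, from lists of known members, also gave 0 calls (limma, adjusted over all genes). Of 46 genes of ribosome assembly, 32 had negative log2 fold changes, with a median of -0.24. At an unadjusted p below 0.05, 8 were lower (17.4%) and 1 higher (2.17%), against 6.11% lower and 7.94% higher among all genes. Npm1, a nucleolar chaperone, measured 186, 227 and 196 FPKM in mutants 1, 2 and 3, and 336, 344 and 366 FPKM in controls 1, 2 and 3. Its mutants lay well below its controls, with a log2 fold change of -0.78 ± 0.17 that narrowly missed the threshold (limma adjusted p = 0.0623).

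Of 35 translation factors, 3 were lower (8.57%) and 0 higher at an unadjusted p below 0.05, with a median log2 fold change of -0.02. Among them Eif4e, which binds the cap of messenger RNA, measured 56.3, 49.6 and 57.5 FPKM in mutants 1, 2 and 3, and 83.0, 94.8 and 91.5 FPKM in controls 1, 2 and 3 (limma adjusted p = 0.085). Of 18 genes of mTOR signalling and ribosome growth control, 1 was higher (5.56%) at an unadjusted p below 0.05 and 0 lower, with a median of 0.15. It was Maf1, a repressor of RNA polymerase III, at 64.7, 94.2 and 68.3 FPKM in mutants 1, 2 and 3, and 28.8, 25.8 and 48.5 FPKM in controls 1, 2 and 3 (limma adjusted p = 0.0815). The groups did not overlap for Eif4e or Maf1.

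Fau, which encodes a ribosomal protein fused to a ubiquitin-like protein, was on a list of 10 related genes, of which 9 were tested. The list had 1 gene lower (11.1%) at an unadjusted p below 0.05, the snoRNA host Snhg6, and a median of -0.27. Of 77 mitochondrial ribosomal protein genes, 55 had positive log2 fold changes, with a median of 0.20. At an unadjusted p below 0.05, 6 of them were higher (7.79%, near the 7.94% of all genes) and 2 lower (2.6%). The smallest p among them was that of Mrpl14, of the mitochondrial large subunit, which measured 91.9, 100.3 and 92.1 FPKM in mutants 1, 2 and 3, and 36.0, 47.1 and 62.1 FPKM in controls 1, 2 and 3 (limma adjusted p = 0.0689).

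Markers of other cells differed between the same groups. Of 10 endothelial genes 3 rose, of 14 cartilage genes 5 fell and of 16 cell cycle genes 4 fell (limma, adjusted over all genes, where 0.775% rose and 0.465% fell). At an unadjusted p below 0.05, where 6.11% of all genes were lower and 7.94% higher, 10 cartilage genes were lower (71.4%) and 2 higher (14.3%). The 2 were Chad and Comp, both matrix proteins of cartilage, with log2 fold changes of 2.001 for Chad (limma adjusted p = 0.143) and 1.56 for Comp (limma adjusted p = 0.173) and mutants above controls without overlap. None of 10 osteoblast, 10 macrophage or 6 erythroid genes passed. At an unadjusted p below 0.05, 1 osteoblast (10%), 3 macrophage (30%) and 1 erythroid gene (16.7%) were higher and 0 lower. The mean of the cartilage genes was 3.95 to 4.11 log2 units in mutants and 4.605 to 4.85 in controls, and that of the cell cycle genes 3.32 to 4.19 in mutants and 4.64 to 4.80 in controls. Their part in the values of the ribosomal protein genes was not tested.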

How the data were processed

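RNA of condylar cartilage was sequenced from 3 mutant and 3 control libraries, grouped by their labels. Total RNA was made into full-length cDNA with the SMART-Seq HT Kit and into libraries with a Nextera kit, as the labels' protocols say, and strand is not kept by this route. The submitters' processing notes name Cufflinks 2.2.1, TopHat2 2.0.13, SAMtools 0.1.19, Bowtie2 2.2.3 and the build mm10, without order or settings. The deposited values, 1 table per library, are taken as FPKM from their distribution and from Cufflinks, since the headers name no unit. Neither the annotation used for counting nor the handling of reads with several matches was stated.

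A gene entered the test if it reached 1 FPKM in 3 or more libraries, which 18715 did. The values, as log2(FPKM + 1), were fitted by group in limma (version 3.58.1, under R 4.3.3) using a variance trend and robust moderation. Calls rest on a Benjamini-Hochberg adjusted p below 0.05 across those genes. In a simulation of this comparison, the fit called 13% of the genes given a true log2 change of 1. It called 94% of those given a change of 3. Of 111 calls 4 were false, and 0 calls arose where nothing had been changed. Not passing the threshold therefore does not by itself exclude a log2 change of 1. The simulation drew its noise separately for each gene and library, and changed only genes of at least 5 FPKM. It held no shifts that genes of a library share, nor the imbalance of the sexes. Its counts of false calls therefore do not carry over to these libraries. Each named ratio of 2 genes was tested by exact permutation. Positions are from GENCODE M21 (84 of 85 symbols matched, all but Rps4l) and sequences from RefSeq on GRCm38.p6 (64 members matched).

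The members, the lists of genes and the tests were chosen with earlier results of these data known. Named members are Rpl3l, Rpl3, paralogs with their parents, and the 5 highest and 5 lowest members by fold change and by level. Up to 4 genes with the smallest p were taken from each list, not all of which are reported, and the 8 genes most correlated with Rpl3l with a mean of at least 5 FPKM. Genes beyond this, such as Rpl34, Ndufb10 and the copies of members, were named after their values were seen. Some genes are not reported here.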

Additional observations from a re-analysis of the deposited data

How the results depend on the processing

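The threshold for Rpl3l was passed after quantile normalization or median scaling, under either other filter (none, or 5 FPKM), with 0.1 as the pseudocount, with moderation that was not robust, and without control 3, mutant 2, mutant 3, or both mutant 3 and control 3. Its log2 fold change did not pass with Xist (2.44) or the muscle genes (1.27) as a covariate, fits in which 2 and 3 genes in all were called. With the controls that express Xist left out, which leaves only control 3, it was 2.42. Leaving out 1 library gave 2.75 to 3.47. The number of members called was 1, and 0 with either covariate or with those controls left out. It was 2 after quantile normalization, and 0 to 1 without 1 library. With the replicate number as a block, 0 members and 2 genes in all were called and Rpl3l stood at 3.10 (limma adjusted p = 0.0688). The numbers do not pair the libraries, as the deviations of libraries with the same number correlated at 0.0063, -0.016 and -0.0091, and 1 of 3 mutants correlated best with its own number.

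Over all genes 232 were called. The count was 5 with the controls that express Xist left out, 440 with the filter at 5 FPKM, 133 without a filter, 411 after quantile normalization, 3 with the muscle covariate, 2 with the Xist covariate and 439 without mutant 3 and control 3. Leaving out 1 library gave 10 (control 2) to 419 (mutant 3), and between these 12 (control 1), 18 (mutant 1), 60 (mutant 2) and 210 (control 3). The members' median log2 fold change of -0.13 was -0.31 with the Xist covariate and with those controls left out, -0.46 with the muscle covariate and -0.25 after quantile normalization. It was -0.21 to -0.04 without 1 library and 0.03 without mutant 3 and control 3. The family's share of summed FPKM, as mutant minus control, was -1.09 percentage points, and it was -1.58 points with those controls left out and -0.699 points without mutant 3 and control 3. The cause of these shifts was not tested.

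None of the following members passed in any setting, and the log2 fold change of each turned its sign in some. Without mutant 3 and control 3, Rpl30 stood at 1.08, Rps27l at 0.18 and Rps4l at 0.053. With the controls that express Xist left out, Rpl37a stood at -0.0078, Rpl7l1 at 0.090, Rpl8 at -0.29 and Rps27 at -0.096. With the Xist covariate these 4 stood at -9.43e-05, 0.093, -0.28 and -0.052. With the muscle covariate Rpl37a stood at -0.016, Rpl39l at 0.40, Rpl7l1 at 0.29, Rpl8 at -0.52, Rps27 at -0.094 and Rps9 at -0.22. Rpl30 kept its sign with that covariate but moved from -0.50 to -6.10 (limma adjusted p = 0.097). Rpl37a was at -0.069 after quantile normalization. Without 1 library, Rpl30 ranged from -1.69 to 0.45, Rpl39l from -0.47 to 0.040, Rpl7l1 from -0.13 to 0.028, Rpl8 from -0.00053 to 0.38, Rps27l from -0.38 to 0.017 and Rps4l from -0.27 to 0.011.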

Other observations

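Of the 84 members with a position in the annotation, 30 contain at least 1 snoRNA gene and 23 overlap a gene on the opposite strand, from which these libraries do not separate reads. Members lie on 19 chromosomes, and 4 of them, Rpl10, Rpl36a, Rpl39 and Rps4x, on the X chromosome. Rpl10 measured 735, 759 and 770 FPKM in mutants 1, 2 and 3, and 845, 829 and 985 FPKM in controls 1, 2 and 3. Rps4x measured 453, 565 and 456 FPKM in mutants 1, 2 and 3, and 513, 484 and 580 FPKM in controls 1, 2 and 3. Control 3 was the highest control for both genes, as it was for 73 of the 84 members tested.

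The pseudogene Rps19-ps3, outside the 85 genes and named after its values were seen, measured 6.40, 7.97 and 12.1 FPKM in mutants 1, 2 and 3, and 28.7, 16.1 and 21.6 FPKM in controls 1, 2 and 3. Its parent Rps19 measured 604 to 815 FPKM in mutants and 557 to 852 FPKM in controls. Rps19-ps3 did not pass (limma adjusted p = 0.0842), and every other copy examined overlapped between the groups. Its values in mutants 1 and 2 lay near the 90th percentile of odour receptor genes, 6.87 to 8.58 FPKM in mutants.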
